A study of Rattus norvegicus with 8 samples.

Results

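The 8 arrays of this series came as 4 whose titles end in "1st" and 4 whose titles end in "2nd", and the 4 second arrays were compared here with the 4 first arrays. Each set held 1 array of every combination of genotype and region, so the arrays formed 4 pairs: wild-type forebrain, Pax6 homozygous forebrain, wild-type hindbrain and Pax6 homozygous hindbrain. All 8 arrays of the series entered the comparison. The sources used here do not say what separated a first from a second array, and the words first and second are used only as the titles give them. RNA came from rat embryos at E12.5, either wild-type or homozygous at Pax6, with the allele not named in the labels. Heads were removed at the upper forelimb and split at the isthmus. Midbrain and the eye and nose primordia therefore went with the forebrain portion, and pharyngeal arches with the hindbrain portion. Each array was an Affymetrix rat U34A array, which reads each transcript with a probe set of short oligonucleotides, and 1 intensity per probe set and array was deposited. Nothing states that first and second arrays held RNA of separate litters or animals, so the p-values below measure only the spread between these arrays.

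The comparison asked which classes of genes differed between the sets: genes of developmental stage, blood, stress, growth or tissue cut, or measures of the arrays themselves. As background, neurogenesis is under way in the brain at this age, so a difference in stage would be sought in progenitor and neuronal genes. Primitive red cells carry embryonic globins, so retained blood would be sought in globin genes. Immediate early genes such as Fos are switched on soon after handling or stimulation, chaperones of the endoplasmic reticulum answer misfolded secretory proteins, and glycolytic enzymes and glucose transporters answer low oxygen. Cytosolic ribosomes, proteasomes and the mitochondrial respiratory chain serve growth and housekeeping in every cell.

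On the arrays as a whole, the noise level, taken as the size of the 5th percentile of an array's intensities, lay between 389 and 619.8 on the first arrays and between 243 and 352 on the second. It was lower on the second array in all 4 pairs, at a mean of 0.556 of the first. The median intensity was also lower in all 4 pairs, 560.6 ± 21.5 (SD, n = 4) on the first arrays and 447 ± 43.5 (SD, n = 4) on the second. The mean after trimming 2% at each end was the same on all arrays to within 1 unit, 2504.1 to 2504.8. The share of probe sets above the noise level was higher on the second array in all 4 pairs, 51.4% ± 3.4 against 56.7% ± 3.68 (SD, n = 4 each). Among control probe sets, the Actb 3′ probe set read 70263, 71178, 87117 and 71034 on the first arrays, in the order wild-type forebrain, Pax6 homozygous forebrain, wild-type hindbrain and Pax6 homozygous hindbrain, which is kept throughout. On the second arrays it read 57646, 62352, 60308 and 61563, below every first array. The Cre spike-in, added to the hybridisation mix and not part of the embryo's RNA, was lower on the second array in 4 of 4 pairs, at a mean of 0.805 of the first. The other spike-ins did not all do so: BioDn was lower in 4 of 4 pairs, BioC in 3 and BioB in 2. The 3′ over 5′ ratio, a sign of how complete the labelled RNA is, was lower on the second array in 4 of 4 pairs for Gapdh, higher in 4 of 4 for hexokinase and higher in 3 of 4 for Actb. The control for 5S rRNA was higher in all 4 pairs, but 3 of the 4 first arrays (104.9 to 395.8) were below their noise level, and the remaining pair read 853.4 and then 882. With 4 pairs, the exact sign-flip permutation test, two-sided, allows 16 sign assignments. Every measure with the same sign in all 4 pairs gave the smallest p these allow, that of 2 assignments in 16 (exact permutation, adjusted p = 0.194 over 28 measures).

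**Figure D1:**
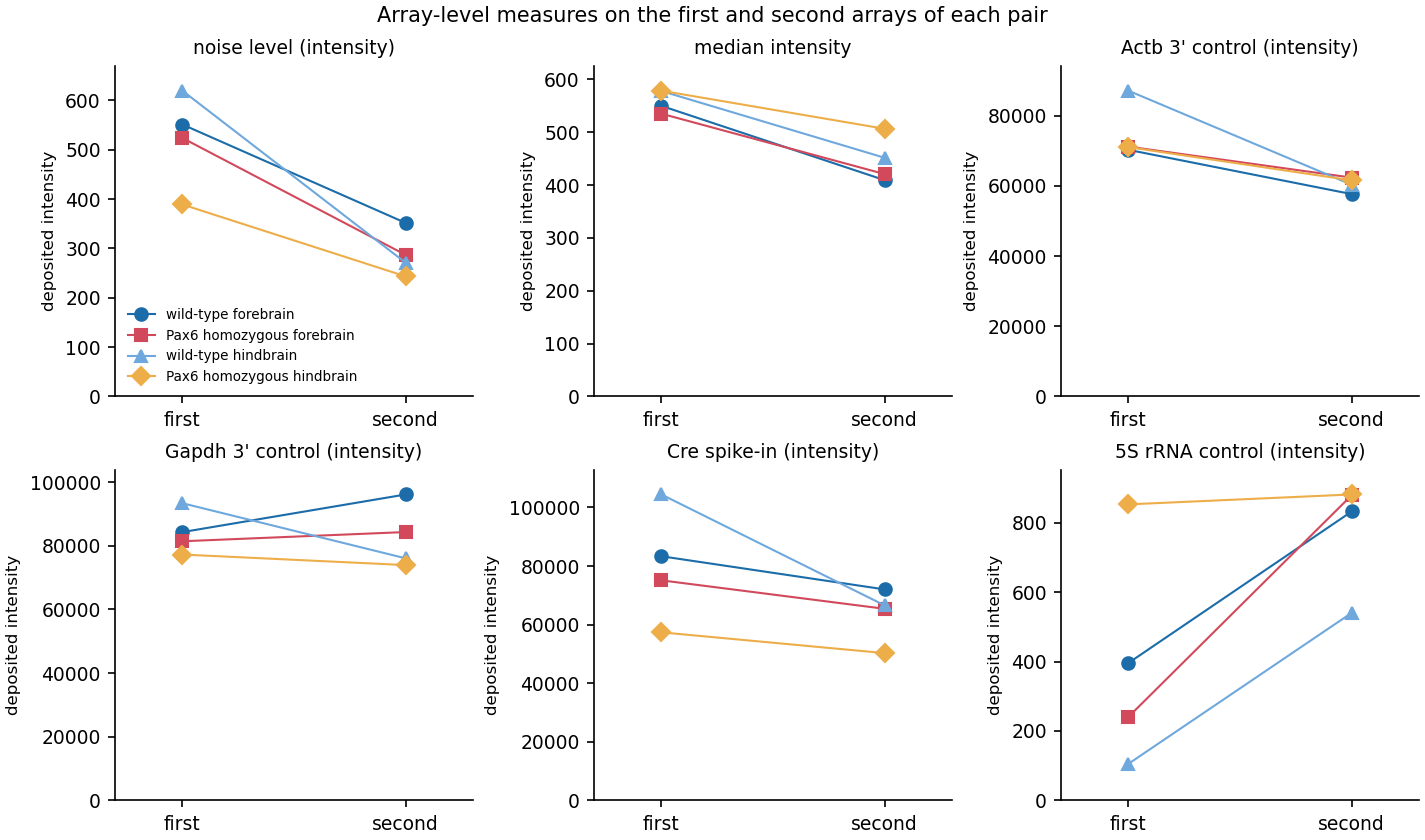
Array-level measures, as deposited intensities, on the first and second array of each pair, with a line joining the 2 arrays of a genotype and region. The noise level, the median intensity, the Actb 3′ control and the Cre spike-in are lower on the second array in all 4 pairs, 5S rRNA is higher in all 4, and the Gapdh 3′ control is higher in 2 and lower in 2.

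Across genes, 75 of 5881 tested probe sets (1.28%) passed an adjusted p of 0.05 in limma with the pairs kept in the model and Benjamini-Hochberg adjustment. Of these, 32 (0.544%) were higher and 43 (0.731%) lower on the second arrays, and the probe sets with 1 gene symbol stood for 28 genes higher and 35 lower. The split depended on the scaling. It was 35 higher and 24 lower after quantile normalization. It was 56 higher and 21 lower with each array centred on the median of the 4245 probe sets above 255 on all 8 arrays. Values given below with centred arrays used this centring. Every call lay just inside the threshold, between 0.0402 and 0.0499. Leaving out the wild-type forebrain, the Pax6 homozygous forebrain or the wild-type hindbrain pair ended all calls, and leaving out the Pax6 homozygous hindbrain pair left 3. At an unadjusted p under 0.05 the model gave 553 probe sets higher (9.4%) and 1172 lower (19.9%), and with 1 pair left out at a time 1163 to 1537 in either direction.

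The direction was shared among pairs for more probe sets than were called. The second array was higher in all 4 pairs for 710 probe sets (12.1%) and lower in all 4 for 1535 (26.1%). All 4 second arrays lay above all 4 first arrays for 300 probe sets (5.1%) and below them for 826 (14%). The 4 sets of pair differences correlated with each other over the 5881 probe sets, with Pearson's r from 0.275 to 0.465. Each difference comes from its own pair of arrays. The points of these correlations share brightness, which moved with the difference as given next.

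The difference followed brightness. The median over all probe sets was -0.126 on the log2 scale, which became -0.012 after either rescaling. Among the 948 probe sets with a mean log2 intensity of 9 to 10 the median was -0.32, and 38.7% were lower in all 4 pairs while 5.91% were higher. Among the 411 with a mean of 13 to 14 the median was 0.054, with 25.5% higher and 11.7% lower in all 4 pairs. The median was 0.027 for the 1513 probe sets above 12. The medians of dim bins thus lay below 0 and those of bright bins at or slightly above it, and each gene class below is set beside the brightness of its members. The share of brightness in the difference of any class was not tested.

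**Figure D2:**
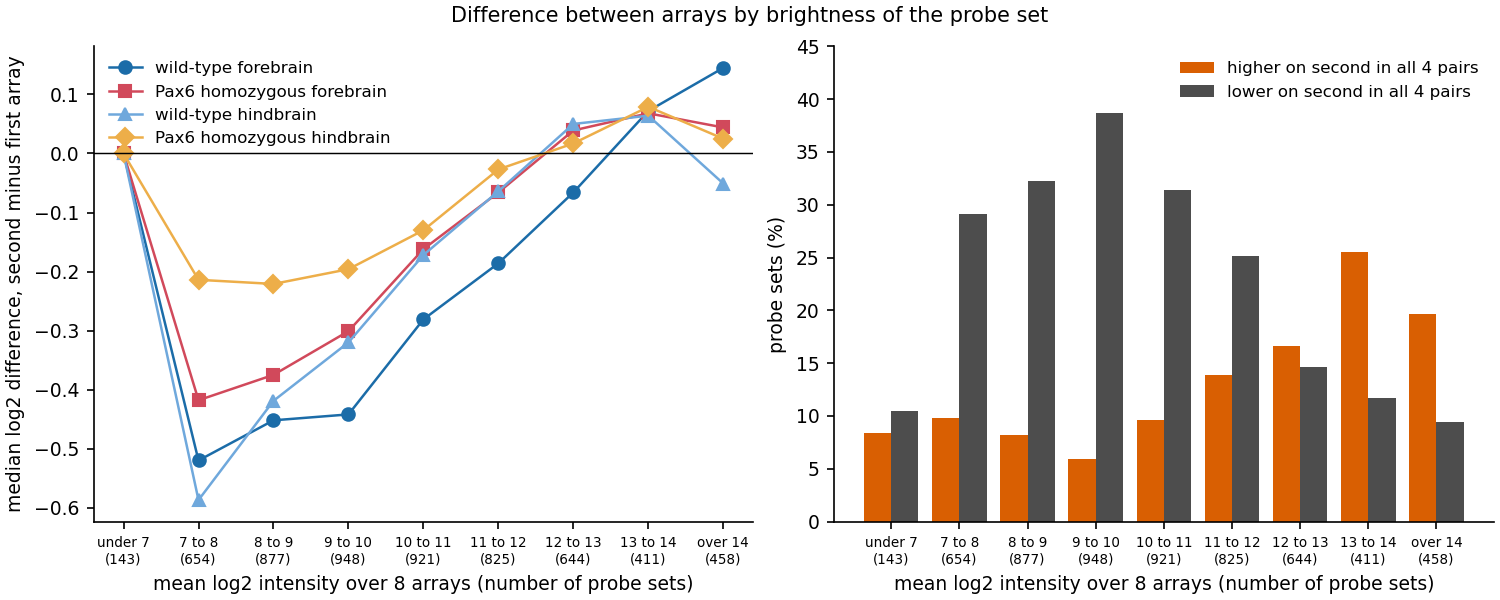
Left, the median log2 difference, second minus first array, of the probe sets in each bin of mean log2 intensity over the 8 arrays, with a line for each pair; right, the percentage of each bin that was higher or lower on the second array in all 4 pairs. The medians lie below 0 in every pair for bins from 7 to 12, are -0.32 over all pairs at 9 to 10 and 0.054 at 13 to 14, and the dimmest bin sits at 0 because its values are mostly at the floor.

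The set number took up more of the variation within genes than genotype or region did. Dividing the sum of squares of each probe set over the 8 arrays into its balanced terms, the set number held a median of 23.2%, region 8.22% and genotype 8.34%, and it was the largest of the 7 terms in 2386 of 5881 probe sets. Summed over all probe sets, the set number held 28.3%, region 23.8% and genotype 12%. Among the 1513 bright probe sets the order of the sums turned, with 23.1% for the set number and 31.6% for region, while the medians stayed at 16.6% and 9.58%.

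Genes called higher on the second arrays with the largest differences were dim or negative on the first: 12 of the 14 named had at most 1 first array above its noise level. Gstk1, a mitochondrial and peroxisomal glutathione transferase, read -1284, -412, -2292 and 503 on the first arrays and 3558, 1967, 2703 and 2964 on the second with probe set S83436_i_at. The groups did not overlap, and it was called higher (adjusted p = 0.0402 in limma). Only 1 of the 4 first arrays was above its noise level, and values under the floor of 45.9 were set to it before the test, so the floor sets the size of the difference and none is given. Its other tested probe set, rc_AI105137_s_at, differed by 0.02.

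Stk39, a kinase that regulates cation-chloride cotransporters, read -258, -39.7, -252 and 657 on the first arrays and 1443, 1251, 1554 and 1448 on the second with D88190_s_at. The second arrays were all above the first (adjusted p = 0.0446 in limma), and with 1 of 4 first arrays above noise no size is given here either. Its other probe set differed by -0.27. Mapt, the microtubule-binding protein tau of neurons, read -196, -128, 41.4 and 158 on the first arrays and 615, 479, 1272 and 787 on the second with X79321_at. No first array was above its noise level, and the second arrays were at least 1.43-fold higher (adjusted p = 0.0442 in limma); the other 2 Mapt probe sets differed by -0.15 and -0.10. An "at least" fold here is the difference between the mean log2 values of the brighter and the dimmer arrays, turned into a fold, with each dim array taken at its noise level or at its own value, whichever was higher.

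Tpm3, a tropomyosin of the actin cytoskeleton, was at least 1.05-fold higher with L24777_at (adjusted p = 0.0402 in limma). Of its 4 other probe sets, 3 differed by 0.27 to 1.16 and 1 by -0.02. Ndufs8, a subunit of respiratory complex I, was at least 1.28-fold higher with rc_AA851379_at (adjusted p = 0.0411 in limma), and rc_AA799479_at, also called, differed by 1.06. The remaining Ndufs8 probe sets differed by -0.03 and 0.08.

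Of the 14 genes named in this direction, Nptn, Pi4kb, Dlgap4, Bet1l, Wdr31 and Maea had no first array above its noise level. Their second arrays were at least 1.66-fold higher for Pi4kb, 1.68-fold for Maea, 1.4-fold for Nptn and 1.15-fold for Dlgap4, and for Bet1l and Wdr31 no bound above 1 could be given. Nptn is a neuronal adhesion protein, Pi4kb a phosphatidylinositol kinase of the Golgi and Bet1l a SNARE of the Golgi. Slc25a26, the mitochondrial carrier of S-adenosylmethionine, also had no first array above noise and was at least 1.77-fold higher. Map4k1 was above noise on all 8 arrays: the kinase, best known from blood cells, read 895, 554, 668 and 856 on the first arrays and 2433, 2216, 2128 and 1315 on the second. The second arrays lay above the first, with a difference of 1.43 ± 0.24 (adjusted p = 0.0446 in limma), while its other probe set differed by -0.18. Polr2a, the largest subunit of RNA polymerase II, read 2445, 763, 1886 and 780.5 and then 3993, 2751, 3914 and 1899.7, so each pair rose while the groups overlapped (1.22 ± 0.20; adjusted p = 0.0446 in limma).

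Of the 14 genes named as lower on the second arrays, 11 were above noise on all 8. Slco2b1, a transporter of organic anions, had the largest difference and was not: it read 1150.4, 1085, 1260.4 and 412 on the first arrays and -572, -678, -736 and 156 on the second, where no array was above noise, and was at least 3.14-fold lower (adjusted p = 0.0446 in limma). Camkv, a pseudokinase of the calmodulin kinase family found at synapses, read 1266, 1122, 749.6 and 593 and then 434, 285, -239.8 and 135. The second arrays were all below the first (adjusted p = 0.0499 in limma), and only 1 of the 4 was above noise, so no size is given. Its other probe set was lower in all 4 pairs.

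Mag, a glycoprotein of myelin, read 1186, 945, 1277 and 1158 on the first arrays and 367, 399, 189 and 456 on the second with X06554cds_s_at, a difference of -1.76 ± 0.30 (adjusted p = 0.0446 in limma). Myelin is not yet formed at this age, and the other Mag probe set differed by 0.06. Entpd1, an enzyme that breaks down extracellular ATP, read 3930.2, 3149, 3016 and 2920.0 and then 1285, 1528, 1121 and 1469, so every second array was below every first. The difference was -1.27 ± 0.16 (adjusted p = 0.0402 in limma). Slbp, which binds the stem-loop of histone mRNA and serves DNA replication, read 3084, 2774, 2852 and 2707 on the first arrays and 1422, 1182, 1205 and 1455 on the second. Its difference of -1.12 ± 0.14 (adjusted p = 0.0402 in limma) came without overlap.

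Acta2, the smooth muscle actin, read 8431, 8424, 11509.7 and 9402 on the first arrays and 3010.3, 3757, 4911 and 5189 on the second with X06801cds_f_at. It fell by 1.18 on the log2 scale (adjusted p = 0.0402 in limma), yet 2 other probe sets of the gene differed by 0.31 and 1.12, so its probe sets disagreed in direction. Pi4kb was called in both directions: rc_AI102103_at differed by -1.01, while D84667_g_at was the one at least 1.66-fold higher. Itgb1, the beta-1 integrin, read 8841, 7393, 8662 and 9386 and then 4290.0, 2578, 4783 and 6358, a difference of -0.996 ± 0.157 (adjusted p = 0.0446 in limma). Colq, Aph1a, Csf2rb, Gas6 and Or13p4 had differences between -1.34 and -1.09 with no overlap between sets, though another Gas6 probe set differed by 0.18. Colq anchors acetylcholinesterase, Aph1a belongs to gamma-secretase, Csf2rb is a cytokine receptor of blood cells, Gas6 a ligand of receptor tyrosine kinases and Or13p4 an olfactory receptor.

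Probe sets of the same gene often disagreed. Of the 62 called genes, 32 had other tested probe sets that were not called, 43 in all. Further probe sets that were themselves called are outside this count. Those of Ndufs8 and of Aph1a shared a direction, and those of Pi4kb did not. The others moved in the called direction in 24 cases, 13 of them at an unadjusted p under 0.05. Ier5, an immediate early gene, was lower in all 4 pairs with both probe sets, neither of which was above noise on any second array, while Fos differed by -1.62 with one and -0.14 with the other, and Hspb1, a small heat shock protein, by -0.96, 0.36 and -0.20.

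**Figure D3:**
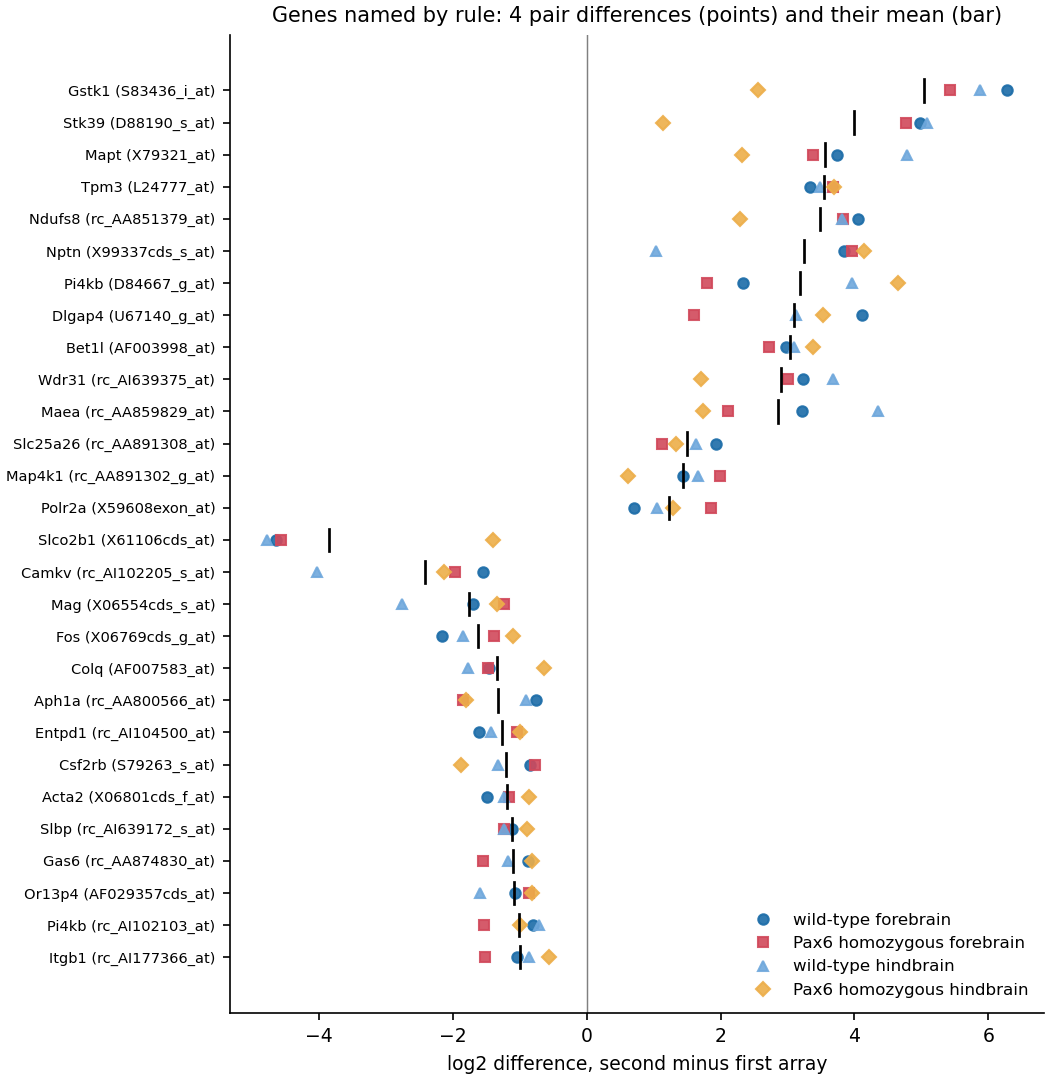
The log2 difference, second minus first array, of each of the 28 probe sets chosen by rule, with a point for each pair and a bar at the mean. Points above 3 belong to pairs whose first array was at the floor of 45.9, and points below -4 to pairs whose second array was, so the floor sets their height. Of the 28 probe sets, Stk39, Ndufs8, Nptn and Slco2b1 each have 1 pair apart from the other 3.

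Gene classes were described by 33 lists of genes, each with its brightest tested probe set, against all 3553 genes tested. Among all genes, 16 (0.45%) were called higher and 27 (0.76%) lower, 415 (11.7%) were higher and 964 (27.1%) lower in all 4 pairs, and the median log2 difference was -0.133. No list test was run, and a list's count is to be read against those shares. In dissected tissue, fewer cells of a type and less RNA per cell cannot be told apart.

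Genes of oxidative phosphorylation, which build the respiratory chain and the ATP synthase, lay above 0 on balance. Of 54 tested, 19 (35.2%) were higher and 2 (3.7%) lower on the second arrays in all 4 pairs, 1 was called higher and none lower, and the median was 0.148. The median was 0.13 after quantile normalization and 0.262 with centred arrays, and it was above 0 in each pair (0.297, 0.113, 0.074 and 0.208). These genes are bright, with a median level of 13.78 on the log2 scale, where all probe sets of 13 to 14 had a median of 0.054 and 25.5% higher in all 4 pairs; the part of brightness was not tested.

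Ndufc2, a subunit of complex I, was the called member: it read 12588, 13176, 9598 and 11857 on the first arrays and 19764, 17186, 17386 and 16951 on the second, without overlap, a rise of 0.60 ± 0.10 (adjusted p = 0.0446 in limma). Uqcrc2, a core protein of complex III, read 12036, 11426, 14023 and 13801 and then 20181, 17567, 18458 and 16338, and its difference of 0.50 ± 0.11 did not pass (adjusted p = 0.0509 in limma). Uqcr11, a small subunit of complex III, differed by 0.42, Ndufs4 of complex I by 0.38, Ndufa5 by 0.40 and Ndufb3 by 0.38, each with all second arrays above all first. Cox8a of complex IV, one of the brightest members, differed by 0.29 with overlap. The exceptions were Cox6a2, the muscle form of a complex IV subunit, which read 1536, 1583, 1312 and 2368 and then 1260.4, 659, 760.3 and 1004 (-0.89 ± 0.21), and Cox4i2, a tissue-restricted form, at -0.76 ± 0.21. Both were dimmer than most members and lower in all 4 pairs.

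Proteasome genes, which encode the protease that degrades ubiquitin-tagged proteins, lay above 0 on balance with members on both sides. Of 27 tested, 9 (33.3%) were higher and 3 (11.1%) lower in all 4 pairs, and none passed the threshold. The median was 0.12 at a level of 13.7, and 0.256, 0.043, 0.02 and 0.188 in the 4 pairs. All probe sets of 13 to 14 had a median of 0.054, with 25.5% higher and 11.7% lower in all 4 pairs. The list's shares were thus near those of its brightness range, and the part of brightness was not tested. At an unadjusted p under 0.05 limma gave 5 higher and 2 lower. Psmd13, a lid subunit, read 5922, 6919, 6534 and 6737 on the first arrays and 8453, 9884, 9122 and 8961 on the second. All second arrays were above the first (0.48 ± 0.09, adjusted p = 0.0509 in limma). The core subunits Psma7 (0.37) and Psma4 (0.41) were also higher without overlap. Psmd2, a scaffold of the base, read 10394, 9268, 9351 and 9889.5 and then 6784, 7935, 6714 and 7548, lower without overlap (-0.43 ± 0.10), and the base ATPase Psmc3 differed by -0.44.

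Splicing factors lay below 0 at a similar brightness. Of 16 tested, none was higher and 5 (31.2%) were lower in all 4 pairs, 15 had a mean below 0, and none passed the threshold, with 1 higher and 7 lower at an unadjusted p under 0.05 in limma. The median was -0.209 at a level of 14.15, where all probe sets above 14 had a median of 0.033 and 9.39% lower in all 4 pairs. It was -0.229 after quantile normalization and -0.095 with centred arrays. Hnrnpd, an RNA-binding protein of the hnRNP family, read 18006, 19641, 18966 and 19788 on the first arrays and 15182, 16965, 14944 and 17341 on the second, lower in each without overlap (-0.25 ± 0.08, adjusted p = 0.098 in limma). Its relatives Hnrnpu, Hnrnpm and Hnrnpf differed by -0.43, -0.57 and -0.24.

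The other growth lists held no call. Ribosomal proteins, the brightest list at a level of 15.96, had a median of 0.012, with 2 of 44 higher and 3 lower in all 4 pairs. Translation factors had a median of -0.089, which became 0.025 with centred arrays, with 4 of 25 higher and 6 lower. Histones had a median of 0.137 over 7 genes, which became 0.372 after quantile normalization.

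Growth factors and imprinted growth genes had a median of -0.186 over 26 genes, which became 0.012 after quantile normalization; 4 were higher and 6 lower in all 4 pairs and none passed. Ins2, an insulin gene, read 3698, 4161, 4702 and 3139 on the first arrays and 2405, 1901, 1614 and 2022 on the second, and Ins1 read 2216, 2216, 2401 and 2319 and then 1261, 631, 1045 and 1531. Both were lower without overlap, with differences of -0.98 ± 0.18 and -1.11 ± 0.22, but missed the threshold (adjusted p = 0.0509 for each in limma). Igfbp5, a binding protein of insulin-like growth factors, differed by -0.71, and its other, dimmer probe set had mixed signs. On the other side were Igf2r, the receptor that clears Igf2, at 0.61, the proliferation factor Mycn at 0.50 and Igfbp2 at 0.22, all higher in 4 of 4 pairs.

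**Figure D4:**
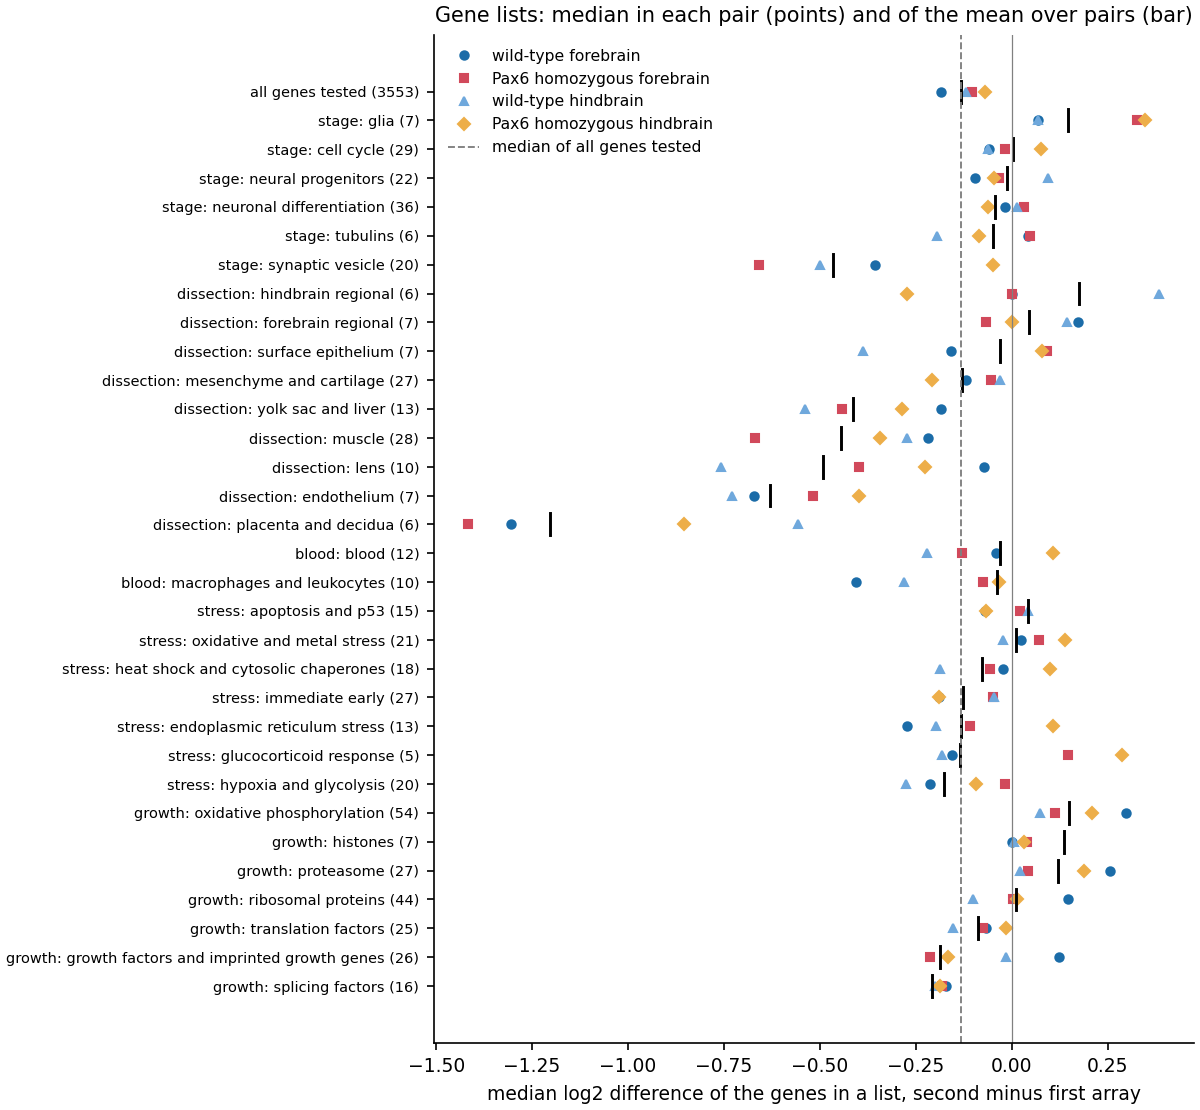
Median log2 difference, second minus first array, over the genes of each list with at least 5 tested genes, in each pair (points) and for the mean over pairs (bars), with the number of genes in parentheses and a dashed line at the median of all 3553 genes. Oxidative phosphorylation lies above 0 in all 4 pairs, splicing factors lie between -0.171 and -0.2 in all 4, and placenta (-1.204) and endothelium (-0.629) lie furthest left.

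In the stress lists, chaperones of the endoplasmic reticulum held 1 call. Pdia3, a disulfide isomerase, read 14844, 16188, 16008 and 15009 on the first arrays and 10594, 8891, 11174 and 10860.1 on the second, lower without overlap, with a difference of -0.58 ± 0.10 (adjusted p = 0.0446 in limma). Its other probe set differed by -0.40. Pdia4, of the same family, read 5449.8, 4205, 5754 and 4156 and then 3415, 2746, 3220.0 and 3082 (-0.64 ± 0.12, adjusted p = 0.0505 in limma). Hsp90b1, the Hsp90 of this compartment, read 17448, 20318, 19394 and 22391 on the first arrays and 11615, 16030.0, 15082 and 20442 on the second, lower in every pair with overlap (-0.36 ± 0.10), and Hspa5 differed by -0.15, also lower in all 4 pairs. The other Hsp90b1 probe sets differed by -0.61 (AA685903_at) and -0.10 (S69316_s_at), each with mixed signs over the pairs. Over the list, 4 of 13 genes were lower and 2 higher in all 4 pairs. The median was -0.132, close to that of all genes although the level was 13.63. Ppp1r15a, a stress-induced phosphatase regulator, was higher in all 4 pairs (0.56), with mixed signs for its other probe set.

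Some chaperone genes of the endoplasmic reticulum share a known control sequence, the ER stress response element. Its letters are CCAAT and CCACG with any 9 bases between them. The 250 bases before the start of each gene in RefSeq's rat table (build GRCr8) were searched for it on both strands. It was found in 22 of 33469 promoters (0.0657%) and in 4 of the 11 tested chaperone and stress genes with a promoter there: Calr, Canx, Hsp90b1 and Hspa5. Of these, Hsp90b1 and Hspa5 were lower in all 4 pairs with their brightest probe sets, and Calr (-0.14) and Canx (-0.13) were mixed. The other Hsp90b1 probe sets had mixed signs, as given above. The promoters of Hsp90b1 and Hspa5 are shown because the brightest probe set of each was lower in all 4 pairs. They come from chr7:23012294-23012543 on the minus strand and chr3:38452766-38453015 on the plus strand, with the matches in capitals. The match is a description of the sequence only.
Hsp90b1: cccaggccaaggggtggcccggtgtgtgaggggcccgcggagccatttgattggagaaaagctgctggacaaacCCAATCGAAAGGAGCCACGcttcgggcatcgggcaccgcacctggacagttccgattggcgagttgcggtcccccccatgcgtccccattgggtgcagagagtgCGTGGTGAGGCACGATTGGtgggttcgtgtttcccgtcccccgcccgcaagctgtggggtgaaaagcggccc
Hspa5: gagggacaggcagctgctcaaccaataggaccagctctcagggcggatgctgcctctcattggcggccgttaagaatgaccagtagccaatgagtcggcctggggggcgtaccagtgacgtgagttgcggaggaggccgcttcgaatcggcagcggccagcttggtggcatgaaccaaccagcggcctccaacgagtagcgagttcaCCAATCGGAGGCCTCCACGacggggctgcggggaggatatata

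Hsp90b1 holds 2 matches, the nearer of which is on the opposite strand, and Hspa5 holds 1 that begins 43 bases before the start. Pdia4, also lower in all 4 pairs, held no match in its window. Only 3 of the 4 list genes lower in all 4 pairs had a promoter to search, and Pdia3, the called gene, had none. The cAMP response element TGACGTCA, known from Fos-like genes, stood in 1.59% of all promoters and in 1 of 18 immediate early genes. That gene was Dusp1, which was higher in all 4 pairs. The NRF1 site, GCGCA directly followed by TGCGC and known from nuclear genes of the respiratory chain, stood in 0.762% of all promoters, in 1 of 46 oxidative phosphorylation genes and in 1 of 26 proteasome genes.

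Immediate early genes were split. Of 27 tested, 1 was called lower, 10 (37%) were lower and 4 (14.8%) higher in all 4 pairs, and the median of -0.128 turned to 0.06 after quantile normalization. Fos read 1671, 1062, 1774 and 1328 on the first arrays and 375, 408, 490.4 and 617 on the second, all above noise and without overlap, a difference of -1.62 ± 0.23 with X06769cds_g_at (adjusted p = 0.0446 in limma). Its second probe set differed by -0.14, as given above. Atf3, a stress-induced transcription factor, read 1607, 1540.4, 1132 and 1237 and then 709, 865, 647 and 863 (-0.83 ± 0.19, adjusted p = 0.0518 in limma). Zfp36, which destabilises inflammatory mRNAs, differed by -0.50, Ptgs2 by -0.83 and Nr4a1 by -0.65, all without overlap. Klf6 (2.53, near the floor), Dusp1 (0.58) and Dusp6 (0.26), a target of growth factor signalling, were higher in all 4 pairs. The list's level was 9.7, in the range where the median of all probe sets was -0.32.

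Genes of hypoxia and glycolysis had 7 of 20 (35%) lower and 2 (10%) higher in all 4 pairs, with no call and a median of -0.178 (-0.076 after quantile normalization and -0.064 with centred arrays). In limma 7 were lower and 1 higher at an unadjusted p under 0.05. Hif1a, the oxygen-sensing transcription factor, read 2808, 3595, 3054 and 2607 on the first arrays and 1107, 2181, 2002 and 2116 on the second, lower without overlap (-0.74 ± 0.18, adjusted p = 0.0594 in limma). Hk2, a hexokinase, read 2298, 2308, 2093 and 2541 and then 1321, 1438, 1362 and 2039, also without overlap (-0.61 ± 0.15), while its other probe set, D26393exon_s_at, was higher in all 4 pairs (0.66, unadjusted p = 0.0115 in limma). Slc2a1, the glucose transporter, differed by -0.46, Slc16a1, a lactate transporter, by -0.59 and Pkm, pyruvate kinase, by -0.32. Aldoa (-0.62) was lower in 3 of 4 pairs, and Bnip3l, a mitophagy receptor, was higher in all 4 (0.27). These are bright genes, with a median level of 12.1, where all probe sets of 12 to 13 had a median of 0.009.

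**Figure D5:**
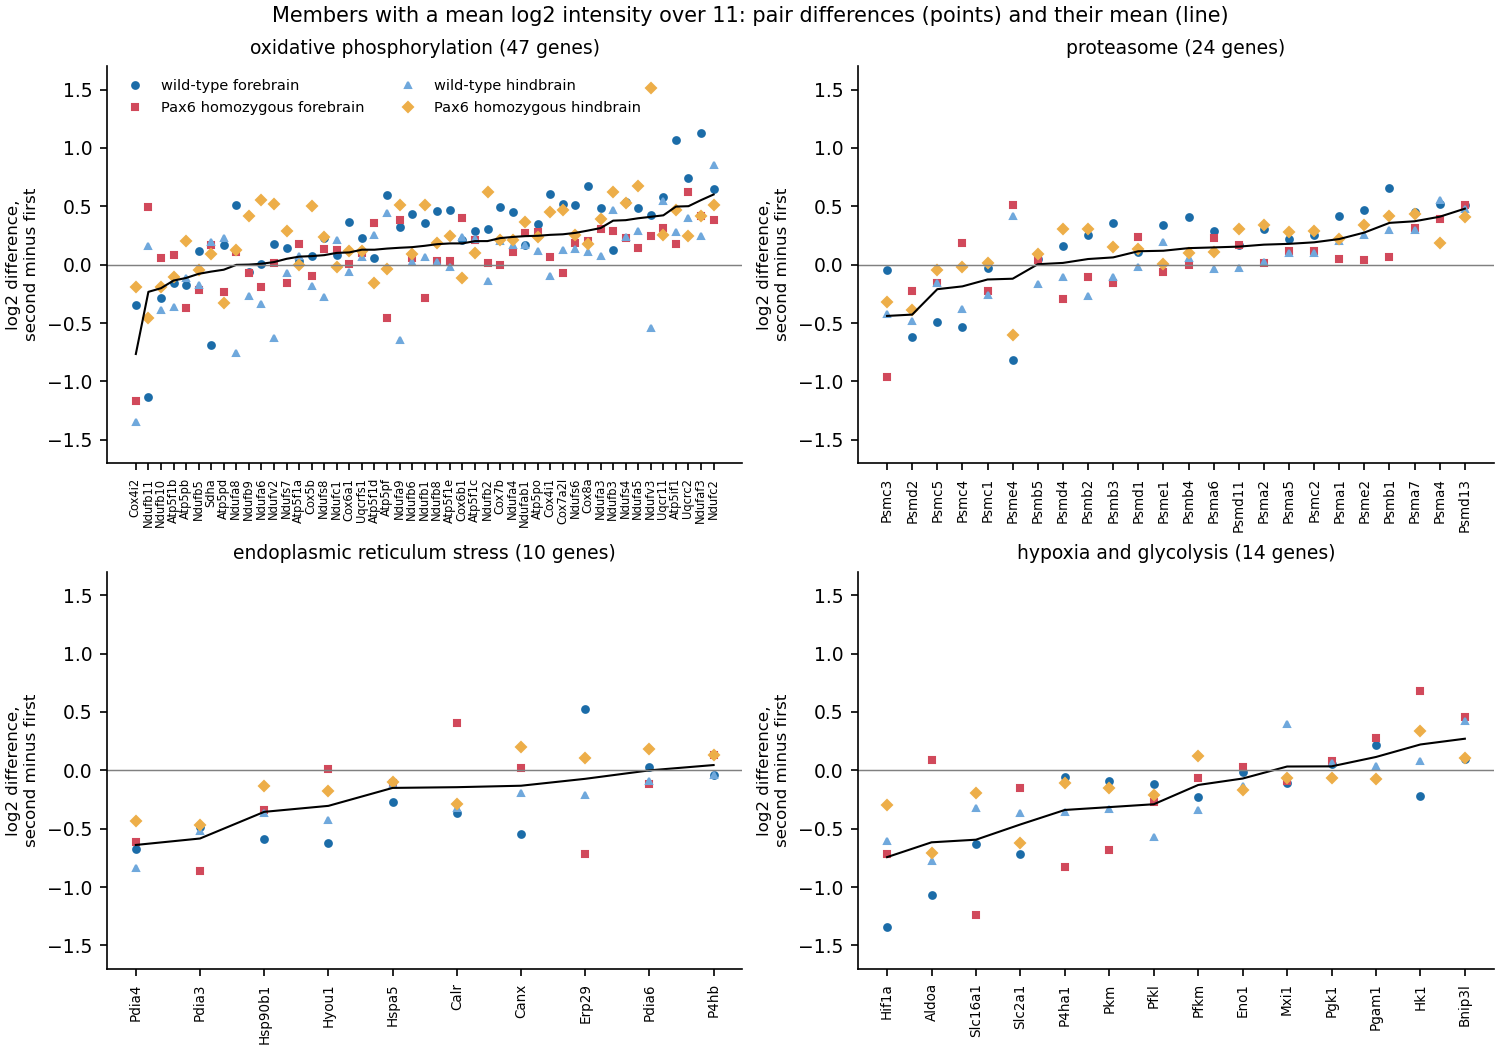
Log2 difference, second minus first array, of each member with a mean log2 intensity over 11 in 4 lists, with a point for each pair and a line through the means. Most of the 47 oxidative phosphorylation and 24 proteasome genes lie above 0, while the endoplasmic reticulum list runs from Pdia4 at -0.64 to P4hb at 0.04 and the glycolysis list runs from Hif1a at -0.74 to Bnip3l at 0.27.

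Other stress lists held no call. Heat shock proteins had a median of -0.078 over 18 genes, which became 0.036 with centred arrays; the mitochondrial chaperone Hspa9 read 4894, 6612, 4996 and 5817 and then 3866, 4626, 3591 and 3203, lower without overlap (-0.55 ± 0.12, adjusted p = 0.0518 in limma). Genes of oxidative and metal stress had a median of 0.011 over 21 genes, with the peroxidase Prdx6 (0.30) higher and Prdx3 (-0.24) lower in all 4 pairs. Genes of apoptosis and p53 had a median of 0.043 over 15 genes, which became -0.016 after quantile normalization. Bad, which promotes cell death, read 8155, 7898, 8677 and 8465 and then 14289, 11658, 11667 and 11044, higher without overlap (0.55 ± 0.10, adjusted p = 0.0509 in limma). The glucocorticoid list of 5 genes had a median of -0.136, which became 0.207 after quantile normalization.

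Blood genes lay near 0. Over 12 genes the median was -0.031, which became 0.083 with centred arrays, with none higher and 2 lower in all 4 pairs and no call. The embryonic globin Hbe1 differed by -0.004 and Hbg1 by -0.06. Hbe2, a dimmer globin, read 1858, 1628, 1535 and 2171 and then 1733, 1061, 1241 and 1340.2 (-0.43 ± 0.16, adjusted p = 0.136 in limma). Hba-a3 was also lower in all 4 pairs (-0.97), with no first array and 1 second array above noise. Epor was higher on every second array than on any first, but no first array was above noise, so no size is given. Macrophage and leukocyte genes had a median of -0.039 over 10 genes, which became 0.185 after quantile normalization, with 4 lower and none higher in all 4 pairs and 5 means on either side of 0. RT1-Ba, a class II antigen-presenting gene, read 1652, 1668, 1205 and 1106 on the first arrays and 509, 600.3, 676 and 667 on the second, lower without overlap (-1.18 ± 0.23, adjusted p = 0.0509 in limma), and Cd14, a receptor of monocytes, differed by -0.62. Ptprc, the pan-leukocyte phosphatase CD45, differed by -0.72, and the complement subunit C1qb was higher in 3 of 4 pairs, with 1 of 4 first arrays above noise.

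Progenitor and neuronal genes lay near 0. Neural progenitor genes had a median of -0.012 over 22 genes, with 2 higher and 4 lower in all 4 pairs, and neuronal genes a median of -0.045 over 36, with 1 higher and 4 lower. Both medians were above 0 after either rescaling, and neither list held a call. Dll3, a Notch pathway ligand of newborn neurons, read 3194, 4239, 5866 and 5383 on the first arrays and 4839.6, 4752, 8987 and 8507 on the second, so each pair was higher and the groups overlapped (0.51 ± 0.12, adjusted p = 0.0554 in limma). Tagln3, a cytoskeletal protein of young neurons, read 7244, 7898, 16641 and 12544 and then 10736, 9107, 21915 and 15886, higher in each pair (0.38 ± 0.09). Snap25 (-0.40) of the synaptic release machinery and the adhesion protein Nrcam (-0.38) were lower in each. Pax6, probed by a set that does not check the genotype, read 1197, 1243, 827 and 1194 and then 636, 927, 531 and 1111 (-0.52 ± 0.20, adjusted p = 0.141 in limma).

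Cell cycle genes had a median of 0.004 over 29 genes, with 4 higher and 5 lower in all 4 pairs and no call. The replication helicase subunit Mcm6 read 23836, 21618, 20620.2 and 22548 and then 15673, 20158, 16052 and 18011, lower without overlap (-0.35 ± 0.10, adjusted p = 0.0783 in limma), but its other probe sets differed by -0.09 and 0.06 with mixed signs. The mitotic phosphatase Cdc25b differed by -0.33. Glial genes had a median of 0.146 over 7 genes and tubulins -0.048 over 6, which became 0.066 with centred arrays. Synaptic vesicle genes had the lowest median of the stage lists, -0.465 over 20, with 8 (40%) lower and 1 higher in all 4 pairs and no call. The vesicle sensor Syt5 read 2865, 1951, 2683 and 698 and then 2024, 643, 694 and 586 (-1.08 ± 0.30), and Rab3a differed by -0.74. That list was dim, at a level of 9.45, where all probe sets had a median of -0.32. The median of its 2 members above 11 was 0.064.

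Markers of tissues taken with the brain were dim and mostly lower. Of 7 endothelial genes, 6 were lower and none higher in all 4 pairs, with a median of -0.629 (-0.324 after quantile normalization) at a level of 9.58 and no call. Kdr, the main VEGF receptor, read 909.9, 718, 1776 and 485 on the first arrays and 271, 350.1, 444 and 273 on the second, all second arrays below the first (-1.40 ± 0.28, adjusted p = 0.0509 in limma). The second VEGF receptor Flt1 differed by -0.63, the adhesion molecule Vcam1 by -0.47 (0.31 with its other probe set) and Pecam1 by -0.56. In the same brightness range, 38.7% of all probe sets were lower in all 4 pairs.

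Muscle genes had a median of -0.444 over 28 (-0.138 after quantile normalization), with 12 (42.9%) lower and none higher in all 4 pairs; the 1 call was Acta2, with the disagreement given above. Developmental forms of myosin heavy chain were among the brighter members: Myh8 read 4191, 4248, 4174 and 4156 and then 2784, 2686, 2328 and 3028, and Myh3 read 2751, 2450.1, 9163 and 8788 and then 870.2, 1463, 6699 and 6169. They differed by -0.64 ± 0.12 and -0.84 ± 0.21 (adjusted p = 0.0509 and 0.0589 in limma). Chrng, the fetal acetylcholine receptor subunit, differed by -0.59. At an unadjusted p under 0.05 in limma 7 members were lower and 2 higher; the higher ones were Myog, a factor of muscle differentiation, and Des, the muscle intermediate filament, both below noise on every first array and mixed in sign over the pairs. The list's level was 8.69, where all probe sets had a median of -0.366.

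Mesenchyme and cartilage genes, by contrast, were bright (level 11.94) and lay with all genes, with a median of -0.129 over 27 and 2 higher and 6 lower in all 4 pairs. Timp2, an inhibitor of matrix proteases, read 3166, 2381, 3176 and 2599.6 on the first arrays and 4308, 4008, 4572 and 4321 on the second, higher without overlap (0.61 ± 0.12, adjusted p = 0.0509 in limma). The matrix protein Sparc read 14633, 11815, 12463 and 11308 and then 18047, 16025, 18862 and 14654, also higher without overlap (0.43 ± 0.09); 2 of its other probe sets were higher and 1, rc_AA946313_s_at, differed by -0.30. Lox, which cross-links collagen, and the matrix protease Mmp2 were lower in all 4 pairs (-0.66 and -0.36), and 16 of the 27 genes had a lower mean. Lens genes (-0.491 over 10), yolk sac and liver genes (-0.415 over 13) and placental genes (-1.204 over 6) had low medians at levels of 8.06 to 9.08, which became -0.271, -0.17 and -0.922 after quantile normalization. Surface epithelium had a median of -0.031 over 7, which turned to 0.216 after quantile normalization. None of these 5 lists held a call, and the sex-linked list and the list of mitochondrially encoded genes had no tested member.

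Region markers give a check of the cut, with Nkx2-1 and Phox2a as examples. Nkx2-1, a transcription factor of the ventral forebrain, read 4011 and 6738 in the forebrain pairs on the first arrays and 4276.5 and 7299.6 on the second, against 228 to 658 in the hindbrain pairs. Phox2a, a factor of hindbrain neurons, read 660.5 to 855 in the hindbrain pairs and -121 to 247 in the forebrain pairs. Of the forebrain list, Sst, a neuropeptide, was instead higher in hindbrain on both sets, and Aldh1a1 overlapped between regions. Of the hindbrain list, Gata3 and Egr2 overlapped between regions. Hoxc4, below noise on every array, read 295 and 287 in forebrain and -415 and -35.6 in hindbrain on the first arrays. Forebrain genes had a median of 0.044 over 7 and hindbrain genes 0.175 over 6, with no call.

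Whether the difference between the sets itself differed by region or genotype was tested with interaction terms. No probe set passed for region (0%), with 166 (2.82%) at an unadjusted p under 0.05 in limma, and none for genotype (0%), with 304 (5.17%). The closest was Nell2, a secreted protein of neurons, at an adjusted p of 0.0858 for region. It read -1004 and -978.5 in forebrain on the first arrays and 1004 and 1514 on the second, while in hindbrain it read 6502 and 3129 and then 7062 and 4154. Marcks, an actin-binding protein of growing neurites and a bright gene, differed between sets by -1.35 and -1.32 in forebrain and by -0.33 and -0.25 in hindbrain. Its interaction of -1.05 ± 0.22 was far from the threshold (adjusted p = 0.9998 and unadjusted p = 0.00229 in limma). For genotype, the smallest adjusted p in limma was 0.358, held by Adcyap1r1 and Cacnb1 among others.

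The set number also bore on the comparisons of the study. With 4 group means alone, 89 probe sets (1.51%) differed between forebrain and hindbrain and 2 (0.034%) between genotypes averaged over regions. With the set number as a block, limma called 139 (2.36%) and 3 (0.051%). At an unadjusted p under 0.05 the numbers were 476 (8.09%) for region and 295 (5.02%) for genotype without the block, and 796 (13.5%) and 589 (10%) with it.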

How the data were processed

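Transcript levels were measured on 8 Affymetrix rat U34A arrays. Per the labels' protocols, poly(A) RNA from 250 µg of total RNA was purified, about 2 µg was reverse-transcribed and 15 µg of biotin-labelled cRNA was hybridised. The authors deposited 1 linear intensity per probe set and array, with 18.2% to 22.3% of values on an array below 0. How these intensities were computed and scaled is not given in the sources used here.

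Values under the pooled 25th percentile (45.9) were set to it before log2. Of 8799 probe sets, 59 controls were left out, and 5881 were tested, each above 255 (the 40th percentile over all arrays) on 2 or more arrays. Second minus first was tested in limma 3.58.1 (R 4.3.3) with 4 genotype-and-region means in the model and an intensity trend. It had 3 residual and 4.61 prior degrees of freedom, and p-values were two-sided and Benjamini-Hochberg adjusted with a threshold of 0.05. Samples were grouped by title. The deviations of arrays with the same number correlated in every combination of groups (r 0.275 to 0.465), so the numbers were taken to pair the arrays. These are the same differences as those tested, and their points share brightness, so the correlations are no separate ground for the pairing. The number of arrays limits the precision.

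Symbols were taken from the annotation of the array platform, with 1 symbol for 7006 probe sets and several for 308. The named genes were, in each direction, the 14 with the largest difference among called probe sets with 1 symbol, the same sign in 4 pairs and a brighter set above noise on all 4 arrays, then the smallest p. In each list the 4 with the smallest p could be named, and so could the 4 in each direction for an interaction; not all of these are described. Ndufs4, Ndufa5, Ndufb3, Cox8a, Cox4i2, Psmc3, Myh3, Ptgs2, Nr4a1, Dusp1, Dusp6, Slc16a1, Pkm, Bnip3l, Mycn, Igfbp2, Hspa5, Calr, Canx, Hbe1, Hbg1, Myog, Des, Ier5 and Hspb1 fell outside this rule and were chosen after their values were seen. The comparison and the lists were chosen with earlier results of these data known.

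The pipeline was tested on simulated data for the second minus first comparison with changes added to 200 of 5881 probe sets. For log2 changes of 0.5, 1, 2 and 3, each given to 50 probe sets, the shares recovered were 20%, 52%, 84% and 86%, and 5 calls were false. Other floors, filters, scalings, variance models and subsets of pairs were tried as alternatives.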

Additional observations from a re-analysis of the deposited data

Results flagged for a closer look

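In groups of 4 values, 6 of the 60 checked had 1 value whose gap to the others, divided by the whole range, was above Dixon's critical value for groups of that size, and chance alone flags about 1 in 20. Stk39 (D88190_s_at) differed by 1.14 in the Pax6 homozygous hindbrain pair and by 4.77 to 5.08 in the other pairs. Ndufs8 (rc_AA851379_at) differed by 2.29 in the same pair and by 3.81 to 4.05 elsewhere. Slco2b1 (X61106cds_at) differed by -1.4 in that pair and by -4.78 to -4.56 elsewhere. Nptn (X99337cds_s_at) differed by 1.04 in the wild-type hindbrain pair and by 3.84 to 4.15 elsewhere. For these 4 genes the sizes in the other pairs rest on values set to the floor of 45.9, on the first arrays for Stk39, Ndufs8 and Nptn and on the second arrays for Slco2b1. The Actb 3′ control read 87117 on the wild-type hindbrain first array and 70263 to 71178 on the other first arrays. The 5S rRNA control read 540.6 on the wild-type hindbrain second array and 833 to 882 on the other second arrays.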

How the results depend on the processing

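The number of probe sets called between the sets moved widely. Against 75 in the reported setting, limma called 296 with the floor at the 30th percentile, 1 with the floor at the median, 11 with no filter, 534 with a filter on all 8 arrays, 7 without the intensity trend, 236 with robust variance and 362 without pairing. Quantile normalization gave 59 and centring 77, of which 50 and 53 were among the 75. Leaving out 1 pair at a time gave 0 to 3. Forebrain pairs alone gave 0 (713 at an unadjusted p under 0.05), hindbrain pairs 0 (830), wild-type pairs 2 (1351) and Pax6 homozygous pairs 0 (764). A threshold of 0.1, chosen after seeing the data, gave 970. Both interactions stayed at 0 calls in the 8 alternatives run for each. With the replicate block, the set number that pairs the arrays, region calls went from 89 to 139 and genotype calls from 2 to 3.

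List medians moved with scaling. After quantile normalization they were -0.324 for endothelium, -0.138 for muscle, 0.06 for immediate early genes, -0.229 for splicing factors and -0.012 for all genes. With centred arrays they were -0.014 for immediate early genes, 0.262 for oxidative phosphorylation, 0.234 for the proteasome, -0.095 for splicing factors and -0.019 for all genes. With a gene's tested probe sets averaged, splicing factors were at -0.244. Bet1l and Klf6 gave no value with the floor at the median, where all their arrays lay at the floor. Of the 94 probe sets of named genes that were checked, none that gave a value reversed in any alternative. Many had the same sign in every pair, as the rule for the largest differences required. For these, leaving out pairs could not reverse the mean, so those alternatives were no check of direction. Probe sets such as those of Nkx2-1, Sst and Hbg1, with mixed signs over the pairs, were not among the 94. Dim probe sets limit the results: where no array of one side was above noise the size is a bound, and for Bet1l and Wdr31 no bound above 1 could be given.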
